A study of Mus musculus with 6 samples.

Results

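The loci of 5 genes of the pluripotency network, Nanog, Dppa3, Esrrb, Sall4 and Tdgf1, were followed through 3 stages of Tet1-driven reprogramming of mouse cells. They were taken as 4 intervals of the mouse build mm9. Nanog and Dppa3 share chromosome 6 from 122560000 to 122680000, Esrrb lies on chromosome 12 from 87690000 to 87875000, Sall4 on chromosome 2 from 168560000 to 168605000, and Tdgf1 on chromosome 9 from 110830000 to 110860000. The intervals are 120 kb, 185 kb, 45.0 kb and 30.0 kb long. A peak was counted when it overlapped an interval by at least 1 bp. This gave 198 peaks of the 663518 in all 6 lists, or 95 of 297011 regions once overlapping peaks of different lists were merged. Peaks were taken by position alone and by no measured value of the marks, although the members were chosen with earlier results of these data known. Each interval was set against its 2 flanks, which lie directly beside it and have its length, with 456 peaks in all.

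5-methylcytosine (5mC) is the DNA mark that keeps many developmental genes silent in cells that do not use them. The Tet enzymes oxidise it to 5-hydroxymethylcytosine (5hmC), a step on a path back to unmodified cytosine and also a mark of its own. Embryonic stem cells are rich in 5hmC, much of it in gene bodies and at distal regulatory elements. Nanog is a homeodomain factor of the self-renewal network and Esrrb an orphan nuclear receptor that is among its best known targets. Sall4 is a zinc finger factor of stem cells and early embryos. Tdgf1, also called Cripto, is a co-receptor for Nodal signals. Dppa3, also called Stella, protects the maternal genome from Tet-driven loss of 5mC after fertilisation. None of the 5 was among the induced factors, which the labels give as Tet1, Sox2, Klf4 and c-Myc.

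All cells carried OG2-GFP/Rosa26-M2rtTA, the latter a doxycycline-controlled activator expressed from Rosa26. The first stage was fibroblasts at passage 4, derived from mice made from TSKM iPS cells, TSKM standing for the 4 induced factors. The second stage (day 3) was such fibroblasts after 3 days of doxycycline, for which the medium was also switched to that used for embryonic stem cells. The third stage was an iPS cell line from the same system at passage 10 to 15, grown on mitomycin-treated feeder fibroblasts, which a short plating step was used to deplete. Medium, passage, feeder cells and induction therefore cannot be told apart as sources of a difference between stages. DNA was precipitated with a polyclonal antibody against 5hmC or a monoclonal antibody against 5mC. There was 1 library per stage and mark. The values below have no replicate error, no test between stages was possible, and the number of reads per library is unknown. From the first stage to the last, the 5hmC lists held 42301, 116087 and 174079 peaks and the 5mC lists 104011, 165869 and 61171, so a longer list can by itself give a locus more peaks. DNA libraries hold no marker genes by which the cell types could be checked.

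Both marks sit mainly on cytosines followed by guanine (CpG), and the promoters of these genes differ in how many they offer. RefSeq promoter sequences, on build GRCm38.p6, were found for 3 of the 5 genes. The 250 bases before the first listed start are shown 5′ to 3′ on the gene's strand, with CpG in capitals. Their positions are on another build than the peaks and cannot be compared with them, so no peak was placed on a promoter.

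Nanog, chr6:122707239-122707488, plus strand: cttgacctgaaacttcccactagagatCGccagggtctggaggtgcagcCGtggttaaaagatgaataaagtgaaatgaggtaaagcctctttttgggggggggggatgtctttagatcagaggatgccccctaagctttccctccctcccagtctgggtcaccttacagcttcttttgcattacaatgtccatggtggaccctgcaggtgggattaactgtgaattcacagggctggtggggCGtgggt

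Esrrb, chr12:86360867-86361116, plus strand: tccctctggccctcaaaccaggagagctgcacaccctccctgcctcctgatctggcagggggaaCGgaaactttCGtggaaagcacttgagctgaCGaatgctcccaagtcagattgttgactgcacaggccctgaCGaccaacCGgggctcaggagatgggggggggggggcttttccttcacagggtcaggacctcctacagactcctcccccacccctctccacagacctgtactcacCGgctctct

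Tdgf1, chr9:110946159-110946408, minus strand: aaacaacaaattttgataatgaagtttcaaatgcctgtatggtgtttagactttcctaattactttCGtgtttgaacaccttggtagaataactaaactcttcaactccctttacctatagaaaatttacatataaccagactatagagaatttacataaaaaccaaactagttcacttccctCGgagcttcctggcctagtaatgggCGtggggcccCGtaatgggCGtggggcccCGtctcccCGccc

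The Nanog stretch holds 3 CpG, the Esrrb stretch 6 and the Tdgf1 stretch 7. Before the second listed starts of Nanog and Esrrb there were 2 and 3, so the Esrrb count depends on the start taken. Over the 32851 starts of the table the median was 6, and 62.2% of starts had more than Nanog. Most CpG sites of the Tdgf1 stretch crowd toward the start. The Nanog stretch also holds the composite Oct-Sox element for which this promoter is known. It was searched as TTTGCATNACAATG on both strands, with the sequence in view. It occurred before 2 starts of the table, 0.00609% of them. Both are Nanog starts whose stretches overlap, so this is a single site, 75 and 151 bases before them.

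From fibroblasts to iPS cells, 5hmC peaks covered more of all 4 loci and 5mC peaks covered less of all 4. Over autosomal windows of 100 kb with a peak of any list, 71.1% had more 5hmC and 66.4% had less 5mC between the same stages. With 4 loci, the counts do not set them apart from these shares. Over the 4 loci together, fibroblast 5hmC covered 6.05 kb (7 peaks), day-3 5hmC 15.4 kb (15 peaks) and iPS 5hmC 79.3 kb (69 peaks). In the same order, 5mC covered 42.2 kb (39 peaks), 58.4 kb (54 peaks) and 13.0 kb (14 peaks). Most of the iPS 5hmC belonged to Esrrb, with 43 of the 69 peaks.

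The 4 loci did not take on 5hmC at the same stage. From fibroblasts to day 3 it covered more of 2 loci, less of 1 and was listed at 0 in both lists at the fourth, beside 65.7% of windows with more. From day 3 to iPS cells it covered more of 3 loci and less of 1, beside 56.9% of windows with more. The flanks differed in stage too. Flank 5hmC at day 3 was 6.55 times that of fibroblasts at Nanog and Dppa3, 1.26 at Esrrb, 0.836 at Sall4 and 0.877 at Tdgf1. In iPS cells it was 1.32, 7.54, 9.43 and 7.17 times that of day 3, in the same order. 5mC covered more of all 4 loci at day 3 than in fibroblasts, beside 82.0% of windows, although only the Nanog and Dppa3 locus still had more when each list was cut to its 42301 top-scoring peaks, the length of the shortest. It covered less of all 4 in iPS cells than at day 3, beside 86.1% of windows, and with equally long lists Esrrb turned the other way.

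**Figure D1:**
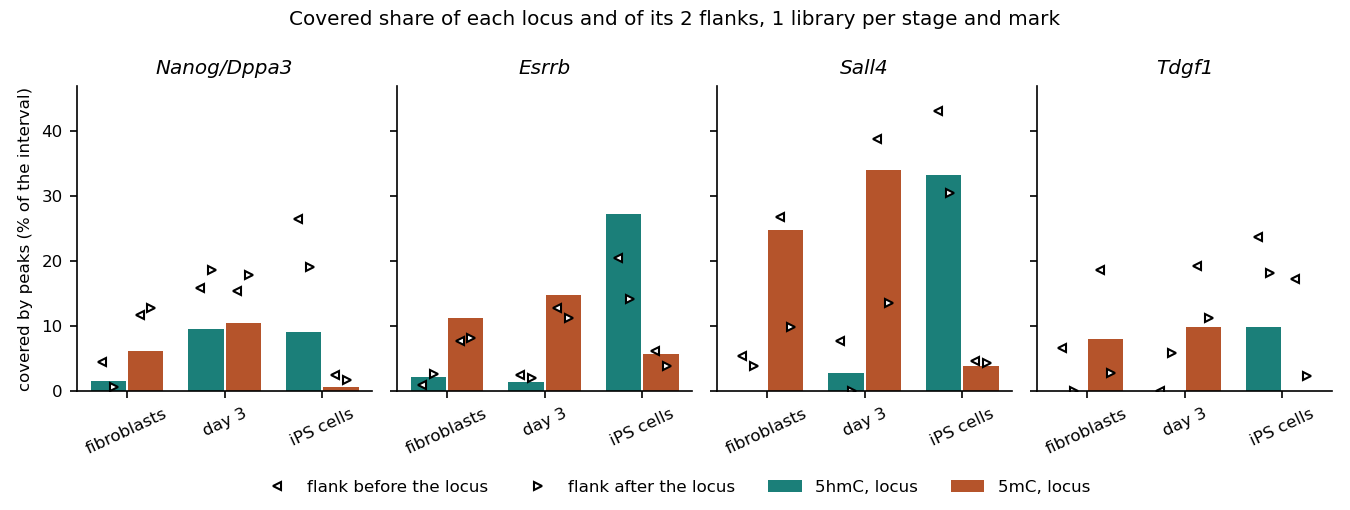
Share of each interval covered by 5hmC (green) and 5mC (brown) peaks, in percent, at the 3 stages. Bars are single libraries with no error, and triangles are the 2 flanks of the same length. In iPS cells 5hmC covers 27.3% of Esrrb and 33.3% of Sall4, and at Nanog/Dppa3 the 5hmC bar is already at 9.52% at day 3.

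At the Nanog and Dppa3 locus 5hmC covered similar lengths at day 3 and in iPS cells. These were mostly different peaks, as was also the case over the whole lists. Fibroblast 5hmC covered 1.96 kb (2 peaks), day-3 5hmC 11.4 kb (10 peaks) and iPS 5hmC 10.9 kb (13 peaks). The last pair of values turned its order, to 11.6 kb and 12.1 kb, when peaks within 1000 bp were joined, and was 6.97 kb and 2.80 kb at equal list lengths. The day-3 length was 5.83 times that of fibroblasts, against 6.55 times in the flanks. Fibroblast 5mC covered 7.53 kb (7 peaks), day-3 5mC 12.6 kb (13 peaks) and iPS 5mC 0.758 kb (1 peak). The iPS list thus kept a single 5mC peak in this locus.

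Most day-3 and most iPS 5hmC peaks of this locus did not overlap each other. The same held for 51.7% of the whole day-3 list and 67.1% of the whole iPS list. Of the 10 day-3 peaks, 3 overlapped an iPS 5hmC peak, or 30.0% (95% Wilson interval 10.8 to 60.3), against 48.3% over the whole day-3 list. Of the 13 iPS peaks, 4 overlapped a day-3 peak, or 30.8% (12.7 to 57.6), against 32.9% over the whole iPS list. Of the 23 merged regions, 5 held a day-3 5hmC peak and no peak of any other list (21.7%, against 15.0% of all regions), and 5 held an iPS 5hmC peak and no other (21.7%, against 14.9%). The day-3 list was densest from 90 to 100 kb into the interval, with 5.10 kb covered, where iPS 5hmC covered 0.811 kb. From 60 to 70 kb the order was the reverse, with 3.23 kb in the iPS list and 0 kb in that of day 3.

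A single region of this locus, chromosome 6 from 122654957 to 122657058, carried a peak of all 6 lists. Such regions made up 1.36% of all merged regions. It held the best-scoring 5hmC peak of the locus at each stage. The scores, which are the peak caller's own values and are compared only within a list, were 1149.61 in fibroblasts (from 122655552 to 122656651), 965.02 at day 3 (from 122655612 to 122657058) and 383.28 in iPS cells (from 122655600 to 122656410). In their lists 0.447%, 3.41% and 6.95% of peaks scored higher. These were strong peaks of each list, the fibroblast list included. The region also held the best 5mC peak of the locus at day 3, with a score of 845.06 and 2.15% of the list above it. The only iPS 5mC peak of the locus, from 122655558 to 122656315 with a score of 123.89, was there too.

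The best fibroblast 5mC peak of the locus lay elsewhere, from 122576318 to 122578280, with a score of 216.52. The day-3 5mC list had a peak at the same place, from 122576446 to 122578148, and no iPS 5mC peak remained there. The other fibroblast 5hmC peak ran from 122643035 to 122643893 with a score of 87.62, and day 3 and iPS cells each had a 5hmC peak over it. No list had a peak in the 18.6 kb from 122659387 to 122677967, the longest such stretch of the locus. In the RefSeq gene order Dppa3 comes just before Nanog along the chromosome, after Gdf3 and before Slc2a3. No mm9 annotation was used here, so peaks were not assigned to either gene.

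Esrrb behaved differently from Nanog and Dppa3, with almost all of its 5hmC listed after day 3, as was also the case at Sall4 and Tdgf1. Fibroblast 5hmC covered 4.09 kb (5 peaks), day-3 5hmC 2.67 kb (3 peaks) and iPS 5hmC 50.5 kb (43 peaks). The iPS value was 12.4 times that of fibroblasts and 18.9 times that of day 3. In the flanks the same ratios were 9.51 and 7.54, so the surroundings shared much of the difference from fibroblasts. At equal list lengths iPS 5hmC covered 21.8 kb of Esrrb, still the highest of the 3 stages. Fibroblast 5mC covered 21.0 kb (21 peaks), day-3 5mC 27.5 kb (26 peaks) and iPS 5mC 10.5 kb (11 peaks). The iPS length was 0.502 times that of fibroblasts, against 0.632 in the Esrrb flanks, 0.101 at Nanog and Dppa3 and 0.155 at Sall4. By peak, 5 of the 21 fibroblast 5mC peaks of Esrrb overlapped iPS 5mC (23.8%), 2 of 9 at Sall4 (22.2%) and 1 of 7 at Nanog and Dppa3, against 39.4% of the whole list. Of the 11 iPS 5mC peaks of Esrrb, 6 overlapped a fibroblast 5mC peak, or 54.5% (28.0 to 78.7), against 67.8% of the whole iPS 5mC list. The other 5 overlapped none, as did 32.2% of that list. At equal list lengths 5mC covered 10.5 kb, 6.77 kb and 7.23 kb of Esrrb, so that day 3 was then the lowest stage.

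The 3 day-3 5hmC peaks of Esrrb differed in rank. The best, from 87736236 to 87737339, scored 235.33 with 24.9% of the list above it. The others, from 87742893 to 87743631 and from 87821698 to 87822526, scored 60.91 and 52.35, with 85.4% and 96.3% of the list above them. The best fibroblast 5hmC peak, from 87714602 to 87715308, scored 142.47, again with 25.1% of its list above it. In iPS cells 8 of the 43 peaks were among the highest-scoring 10% of their list.

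The strongest iPS peak of Esrrb was also unusually wide. It ran from 87858711 to 87863199, 4.49 kb, with a score of 1085.62. Only 0.492% of iPS 5hmC peaks scored higher and 0.258% were at least as wide. It overlapped no peak of any other list. Along the interval, iPS 5hmC fell into 2 blocks, with 44.0 kb free of it from 87806698 to 87850683, a stretch chosen after its values were seen. In that stretch fibroblasts had 3 5mC peaks and 2 5hmC peaks, day 3 had 6 5mC peaks and 1 5hmC peak, and iPS cells had 0 peaks of both marks. It contained the best fibroblast 5mC peak of Esrrb, from 87810564 to 87811973 with a score of 318.18, and the best day-3 5mC peak, from 87810467 to 87811914 with a score of 571.00. The best iPS 5mC peak, from 87717798 to 87719115 with a score of 142.72, lay in the first block. The region from 87741832 to 87743965 carried peaks of 5 lists, all but fibroblast 5hmC.

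**Figure D2:**
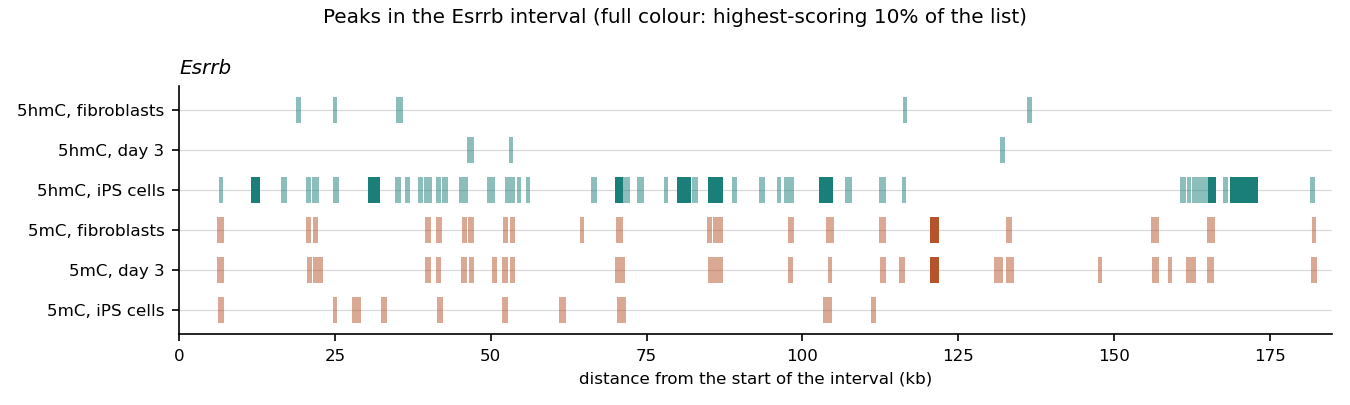
Peaks of the 6 lists along the Esrrb interval, by distance in kb from its start, with 5hmC in green and 5mC in brown. Full colour marks peaks among the highest-scoring 10% of their list. Only the iPS 5hmC row is densely filled, with an empty stretch from 116.7 to 160.7 kb in which both earlier 5mC rows have peaks.

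Sall4 was the locus with the widest 5mC in fibroblasts for its length. Of its 9 fibroblast 5mC peaks, 6 had iPS 5hmC (66.7%, against 67.2% of the whole list), 2 of these also iPS 5mC, and 3 had neither mark. Fibroblast 5hmC was listed at 0, day-3 5hmC covered 1.30 kb (2 peaks) and iPS 5hmC 15.0 kb (9 peaks). Fibroblast 5mC covered 11.2 kb (9 peaks), day-3 5mC 15.4 kb (12 peaks) and iPS 5mC 1.74 kb (2 peaks). In shares of the interval, 5mC covered 24.9%, 34.1% and 3.87%, and iPS 5hmC covered 33.3%. With a score of at least 100, no iPS 5mC peak was left in the locus.

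The highest-scoring peaks of both marks lay in 2 adjoining regions, from 168574085 to 168578521 and from 168578895 to 168582336. The best fibroblast 5mC peak, from 168579461 to 168582266, scored 1579.84, and 0.174% of its list scored higher. The best day-3 5mC peak, from 168578895 to 168582292, scored 3100, and 0.0109% of its list scored higher. Both iPS 5mC peaks of the locus were in these regions. They ran from 168577640 to 168578311 with a score of 54.84 and from 168579705 to 168580773 with 86.48. Of the iPS 5mC list, 85.8% and 39.2% scored higher. In iPS cells the same regions held the strongest 5hmC peaks of the locus. These ran from 168575407 to 168578521 with a score of 1267.18 and from 168579265 to 168582336 with a score of 1110.29. Of the iPS 5hmC list, 0.307% and 0.456% scored higher. The 2 day-3 5hmC peaks were outside these regions, from 168559166 to 168560265, across the edge of the interval, and from 168586232 to 168587265, with scores of 280.76 and 483.77.

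Tdgf1 had the fewest peaks and no 5hmC inside its interval before the iPS stage. Just past the end of the interval, a day-3 5hmC peak overlapped an iPS 5hmC peak that crosses this edge. 5hmC was listed at 0 in fibroblasts and at day 3 and covered 2.96 kb in iPS cells (4 peaks, 2 of them across the edges of the interval). 5mC covered 2.43 kb in fibroblasts (2 peaks), 2.96 kb at day 3 (3 peaks) and was listed at 0 in iPS cells. With a score of at least 100 the order of the first 2 values turned, to 2.43 kb and 2.26 kb, as it did at equal list lengths.

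In Tdgf1, peaks of 5mC and of 5hmC did not overlap. Both fibroblast 5mC peaks, from 110848632 to 110850173 with a score of 247.34 and from 110853551 to 110854441 with 109.70, had a day-3 counterpart and no iPS peak of either mark. Of the whole fibroblast list, 23.5% had neither mark in iPS cells. The day-3 counterparts ran from 110848576 to 110850092 with a score of 315.02 and from 110853732 to 110854476 with 118.90. The remaining day-3 5mC peak, from 110836302 to 110837003, scored 57.13. The best iPS 5hmC peak, from 110837685 to 110838947, scored 252.68, and 0 of the 4 iPS 5hmC peaks lay on earlier 5mC, against 56.9% of the whole iPS list.

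**Figure D3:**
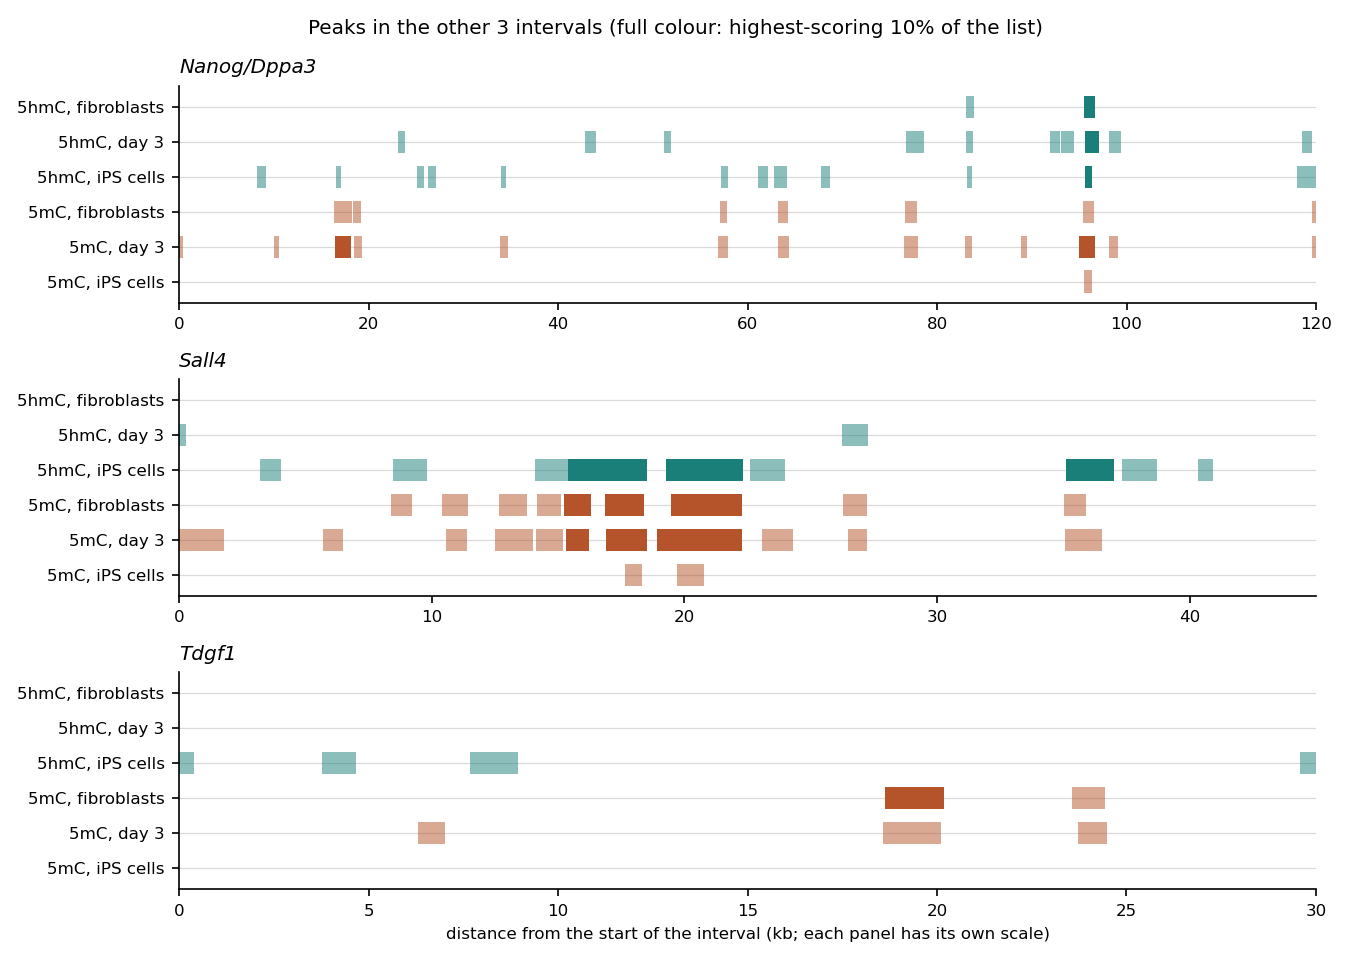
Peaks of the 6 lists along the Nanog/Dppa3, Sall4 and Tdgf1 intervals, by distance in kb from the start of each, with 5hmC in green and 5mC in brown. Full colour marks peaks among the highest-scoring 10% of their list. Peaks of all 6 lists stack near 96 kb at Nanog/Dppa3, and at Sall4 strong 5mC of the first 2 stages and strong iPS 5hmC share the stretch from 15 to 22.3 kb.

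Beside their flanks, the loci differed among themselves. In iPS cells 5hmC covered 27.3% of Esrrb, and 20.5% and 14.2% of its flanks. At Sall4 the locus had 33.3% and the flanks 43.2% and 30.5%. At Nanog and Dppa3 the order was the opposite of Esrrb, with 9.09% of the locus and 26.6% and 19.2% of the flanks. Tdgf1 was likewise below both flanks, with 9.86% against 23.7% and 18.3%. Esrrb was thus the only 1 of the 4 loci above both of its flanks for iPS 5hmC. Over all 4 loci the covered share of iPS 5hmC was 0.962 times that of the flanks, and without Nanog and Dppa3 it was 1.24 times. For fibroblast and day-3 5hmC the ratios were 0.627 and 0.557. For 5mC they were 1.03, 0.995 and 0.775 at the 3 stages, and the fibroblast value turned to 0.891 with flanks placed 1 locus length away.

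Among autosomal windows of the same length with a peak in any list, Esrrb and Sall4 were far up the range for iPS 5hmC and the other loci were not. The median 185-kb window had 3.61% of its length under iPS 5hmC, and 6.18% of 12279 windows had more than Esrrb. At day 3, 62.1% of windows had more 5hmC than Esrrb. For Sall4 the median 45-kb window had 4.70%, and 5.73% of 42514 windows had more than the locus. For Nanog and Dppa3 34.5% and for Tdgf1 37.3% of windows of their length had more. Sall4 stood high for 5mC as well, with 3.42% of windows above it in fibroblasts. The flank before it was higher still, with 26.8% under fibroblast 5mC against 24.9% of the locus, and the flank after it had 9.84%. In iPS cells these flanks had 4.62% and 4.36%. The 5mC share of the Sall4 locus was 21.0 percentage points lower in iPS cells than in fibroblasts, a difference of -21.0. Of the windows, 0.621% had a larger loss, which only windows with a high fibroblast share could have.

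**Figure D4:**
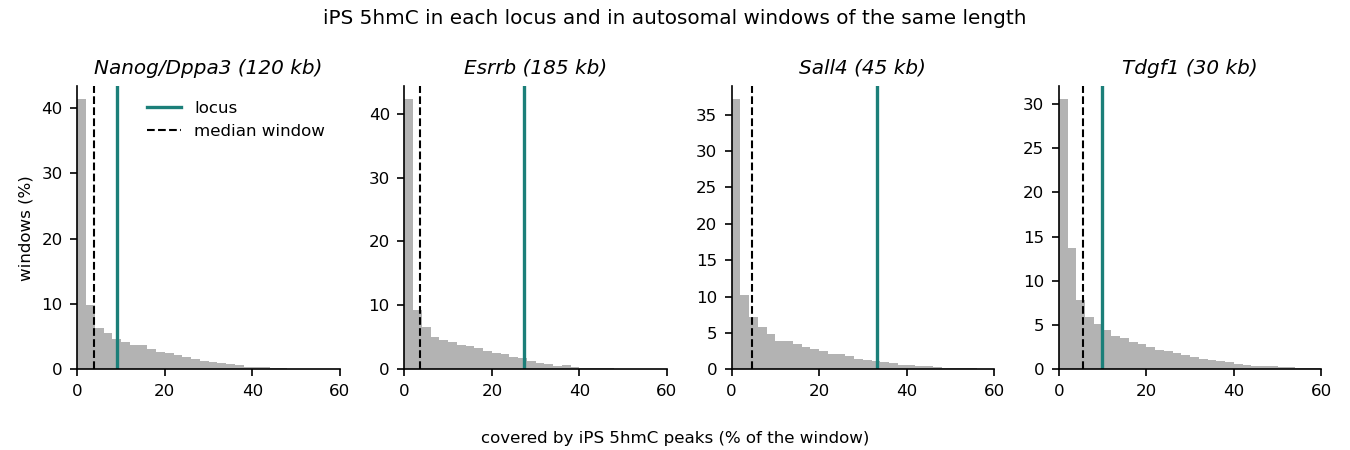
Share of the window covered by iPS 5hmC peaks, in percent, over autosomal windows as long as each locus (grey, percent of windows per bin). The axis ends at 60%. Green lines mark the loci and dashed lines the median window. Esrrb and Sall4 sit in the right tail, at 27.3% and 33.3%, and Nanog/Dppa3 and Tdgf1 nearer the median, at 9.09% and 9.86%.

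Whether fibroblast 5mC was later found with 5hmC was followed peak by peak. Of the 39 fibroblast 5mC peaks of the loci, 6 had a 5hmC peak at day 3, or 15.4% (7.25 to 29.7), against 30.9% over the whole list. In iPS cells 27 had one, or 69.2% (53.6 to 81.4), against 67.2%. Both comparisons with the whole list depended on the setting. With a score of at least 100 the iPS share was 45.0% (25.8 to 65.8) against 67.5%, and with equal list lengths 35.0% (18.1 to 56.7) against 48.3%. The day-3 share was 4 of 20 peaks under both settings, beside whole-list shares of 26.4% and 19.9%. Neighbouring peaks are not independent, and the intervals cover counting error only. The 6 peaks with day-3 5hmC were 2 of 7 at Nanog and Dppa3, 3 of 21 at Esrrb, 1 of 9 at Sall4 and 0 of 2 at Tdgf1. At day 3 all 6 still had 5mC. This was also the usual state over the whole list, where 28.5% of peaks had both marks at day 3 and 2.37% had 5hmC alone.

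In iPS cells the 39 peaks were split between 3 states. At 19 of them there was 5hmC without 5mC, or 48.7% (33.9 to 63.8), at 8 both marks, or 20.5% (10.8 to 35.5), and at 12 neither mark, or 30.8% (18.6 to 46.4). None had 5mC without 5hmC, against 9.32% of the whole fibroblast list and 3 of 82 peaks in the flanks. The flanks otherwise had like shares, with 46.3% for 5hmC alone and 24.4% for neither mark. Wherever a fibroblast 5mC peak of these loci kept 5mC in iPS cells, 5hmC was therefore listed at the same peak. Both marks were found at 30.0% of the whole list and 25.6% of the flank peaks. At the Esrrb peak from 87696079 to 87697237 the iPS 5hmC peak scored only 50.12, with 99.7% of its list above it. With a score of at least 100 this place keeps 5mC in both lists (113.26 and 109.34) and loses that 5hmC peak.

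**Figure D5:**
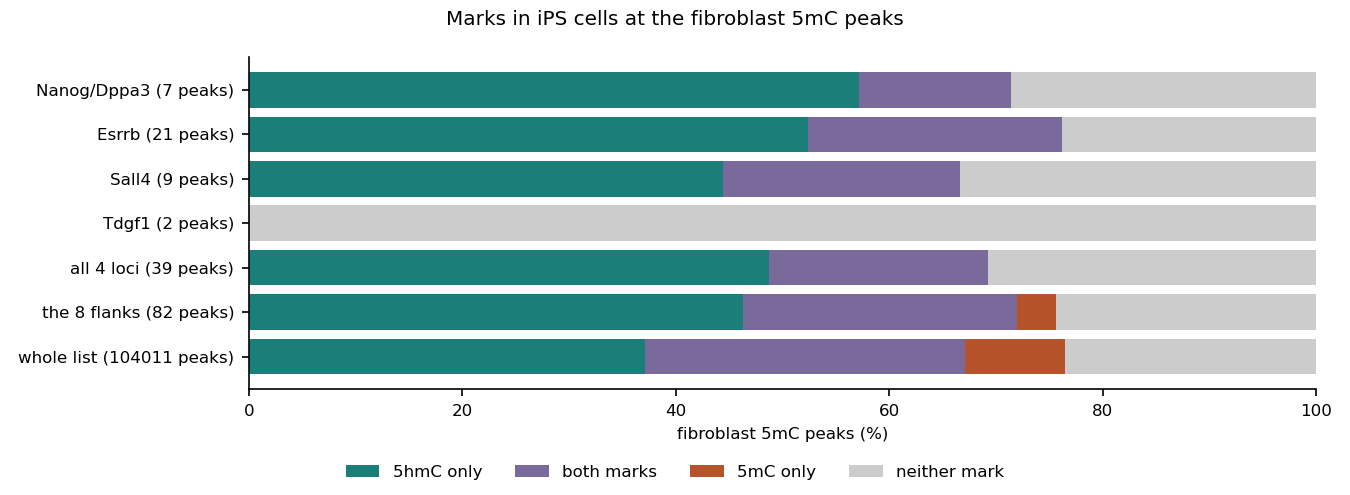
State in iPS cells of the fibroblast 5mC peaks of each locus, of the 4 loci, of the 8 flanks and of the whole list, in percent of peaks, by whether an iPS 5hmC or 5mC peak overlaps. The brown part, 5mC alone, is absent at the 4 loci, makes up 3.66% of the flank peaks and 9.32% of the whole list.

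Seen from the iPS stage, most 5hmC of these loci had no forerunner. Of the 69 iPS 5hmC peaks, 59 overlapped no 5hmC peak of fibroblasts or of day 3, or 85.5% (75.3 to 91.9), against 58.7% of the whole iPS list and 66.9% (59.0 to 74.0) in the flanks. Esrrb contributed 38 of 43, Nanog and Dppa3 9 of 13, Sall4 9 of 9 and Tdgf1 3 of 4. In the same order these are 88.4%, 69.2%, 100% and 75.0%, against 74.6%, 51.1%, 75.0% and 71.4% in the flanks of each. The intervals of Esrrb (75.5 to 94.9) and of its flanks (62.2 to 83.9) overlapped. Esrrb made up a larger part of the locus peaks than of the flank peaks, so the pooled shares weigh the loci unequally. Of the 59 peaks, 28 lay on 5mC of fibroblasts or day 3 and 31 on neither, which is 47.5% on earlier 5mC, against 54.9% of such peaks in the whole list. At Sall4 it was 6 of 9 and at Esrrb 18 of 38.

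Base pairs under both marks at once also differed by stage. At Nanog and Dppa3 they came to 1.07 kb in the fibroblast lists, 3.90 kb in the day-3 lists and 0.716 kb in the iPS lists. At Esrrb the values were 0 kb, 2.05 kb and 5.32 kb, and at Sall4 0 kb, 1.01 kb and 1.74 kb. Tdgf1 had 0 kb at each stage. In iPS cells 5hmC lay over 50.4% of the covered 5mC of Esrrb, 94.5% of that of Nanog and Dppa3 and 100% of that of Sall4, against 60.6% over the whole iPS 5mC list. At Nanog and Dppa3 this was 1 peak and at Sall4 2 peaks. Whether both marks are on the same molecules is not measured by these precipitations. Merged over the lists, 30 of the 95 regions, or 31.6%, had iPS 5hmC and no other peak, against 14.9% of all regions, and 19 of the 30 were at Esrrb.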

How the data were processed

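Genomic DNA was sonicated, ligated to adapters and precipitated with an antibody against 5hmC or 5mC, with 500 ng per reaction, 14 to 16 cycles of amplification and fragments of 300 to 500 bp, per the labels' protocols. Tools listed in the submitters' processing notes are MACS 1.4.1 (peak calling), Bowtie 0.12.7 (alignment) and CASAVA 1.8, with mm9 as the build. The authors deposited 1 peak list per library, with a score per peak, the peak caller's value. The sources used here do not give its formula, a control library or the caller's settings. Scores depend on depth, which is unknown, and served only for ranking and filtering inside a list.

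Positions are on mm9 and counted from 1. Covered length was clipped to each interval, and 8 peaks across interval edges were counted in the interval and in the flank. Windows were laid end to end over the autosomes. Values have no test, and shares carry 95% Wilson intervals. The members, lists and settings were chosen with earlier results of these data known. Peaks named with positions are the best-scoring peak of each list in a locus, every peak of a list with 3 or fewer there, and regions with 5 or 6 lists, and others were chosen after their values were seen. A planned list of further pluripotency genes was left out, since no mm9 annotation was used here. Alternatives were a minimum score of 100, equal list lengths, joined peaks, the peak's centre, other flanks, at least 50% overlap and each locus left out. Scripts ran on Python 3.11.15 with matplotlib 3.10.9, scipy 1.17.1, pandas 2.3.3 and numpy 2.4.6. The interval arithmetic was tested on simulated data in 20 runs, with 0 peaks wrong.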

Additional observations from a re-analysis of the deposited data

Results flagged for a closer look

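Between fibroblasts and iPS cells the marks went in opposite directions over the 4 loci, which is what singled these values out. 5hmC peaks covered 73.3 kb more in iPS cells than in fibroblasts. 5mC peaks covered less, with a difference of -29.1 kb. All 4 loci had both directions, beside 71.1% of autosomal 100-kb windows with more 5hmC and 66.4% with less 5mC. The counts do not set the loci apart from these shares. With 1 library each, this contrast of the marks was not tested.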

How the results depend on the processing

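Each stage and mark has 1 library of unknown depth, which limits every value here. No paired analysis was possible because no group has a second library. Of 24 comparisons between stages at single loci, 19 did not turn under a score of at least 100, equal list lengths and joined peaks. Among the 19 is 5hmC of Tdgf1 from fibroblasts to day 3, which was listed at 0 throughout and has no direction. The 5 that turned are those named above at Nanog and Dppa3, Esrrb, Sall4 and Tdgf1. In the order fibroblasts, day 3, iPS cells, a score of at least 100 left 3, 9 and 37 5hmC peaks in the loci and 20, 30 and 4 5mC peaks. Equal list lengths left 8 day-3 and 22 iPS 5hmC peaks, and 20, 14 and 9 5mC peaks. Without Esrrb there were 2 fibroblast and 26 iPS 5hmC peaks, and 18, 28 and 3 5mC peaks. Without Nanog and Dppa3 there were 5 day-3 5hmC peaks. The ratio of loci to flanks for iPS 5hmC, 0.962, passed 1 with equal list lengths (1.02), without Nanog and Dppa3 (1.24) and without Tdgf1 (1.003), and was 0.574 without Esrrb. For fibroblast 5mC, 1.03, it went below 1 with longer flanks (0.955), with flanks 1 length away (0.891), without Esrrb (0.81) and without Sall4 (0.947). For day-3 5mC, 0.995, it passed 1 without Nanog and Dppa3 (1.18) and without Tdgf1 (1.02). For iPS 5mC it was 0.334 without Esrrb. No direction against the flanks is read from ratios this near 1. The share of fibroblast 5mC peaks with iPS 5hmC was 45.0% with a score of at least 100 and 35.0% with equal list lengths. Of the other 88 recomputed values of the loci together, 3 moved by over 1.5 times, within their counting range: fibroblast 5hmC against the flanks from 0.627 to 0.312 without Esrrb, and with flanks 1 length away day-3 5hmC from 0.557 to 0.293 and iPS 5mC from 0.775 to 0.459. The cause of the shifts was not tested, except that a higher minimum score, shorter lists and fewer loci leave fewer peaks by construction.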

Other observations

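Esrrb also held iPS 5mC peaks that had no counterpart in any other list. These were 4 of its 11 iPS 5mC peaks, or 4 of its 51 merged regions (7.84%), against 1.59% of all merged regions. No such region occurred at the other 3 loci, but Nanog and Dppa3, Sall4 and Tdgf1 had only 1, 2 and 0 iPS 5mC peaks. The remaining 7 iPS 5mC peaks of Esrrb overlapped an iPS 5hmC peak, or 63.6% of the 11, near the 67.2% of the whole iPS 5mC list. The regions were noticed after their values were seen, and no comparison was tested.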
